A study of Triticum aestivum with 12 samples.

Results

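Sucrose synthase (SUSase) and sucrose phosphate synthase (SPS) were followed in wheat grain and flag leaf through 3 genes of the 107892 in the count table. They are the SUSase genes of chromosome 7B (TraesCS7B02G063400) and chromosome 7D (TraesCS7D02G159800), and the SPS gene of chromosome 4B (TraesCS4B02G091100). They were chosen as the genes with these names in the study's list of starch synthesis genes, a list of genes that differed between the lines in grain, leaf or both. In that list all 3 genes differed in leaf and not in grain. Other SUSase and SPS copies, such as homeologs on the remaining wheat genomes, were not analysed here, because the files do not pair gene IDs with names.

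RNA was sequenced from seeds and flag leaf of bread wheat at 20 days after anthesis (DAA), in 3 libraries for each of 4 groups. The WT groups came from line BW208, and the E82 groups from 1 RNAi line derived from it by transformation and repeated selfing. E82 carries 2 hairpin plasmids, pGhp-ω/α and pghp8.1, whose inverted repeats target the ω-, α- and γ-gliadins under promoters specific to the endosperm. Both lines grew in a greenhouse under 1 stated day and night regime, and the paper names no treatment. The 3 replicates of a group were different plants.

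Sucrose synthase cleaves sucrose with UDP into UDP-glucose and fructose, and is a main entry point of sucrose carbon into starch and cell walls in sink organs such as the filling grain. Sucrose phosphate synthase joins UDP-glucose and fructose 6-phosphate into sucrose 6-phosphate, the step that commits carbon to sucrose in source leaves. The enzymes thus stand at opposite ends of the route from leaf to grain.

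The libraries held between 27172814 and 59921014 counts, fewest in WT leaf (27172814 to 41002622) and most in E82 leaf (55529286 to 59921014). Genes with a count numbered 31558 to 45655 in WT leaf, 55916 to 59840 in E82 leaf and 58338 to 64874 in grain. The tissue labels held against markers, by summed TPM (the transcript abundance of kallisto, which is divided by transcript length). For 7 grain genes (3 TaPBF, 2 Glo3 and 2 GBSSI/waxy) the sum, mostly from the Glo3 globulin genes, was 3666 to 5006 in WT grain and 2962 to 3138 in E82 grain. In leaf the same sum was 1.04 to 13.9 in WT and 0.0527 to 0.324 in E82, with no overlap. The summed TPM of the 2 GLK1 genes, regulators of chloroplast development, was 27.6 to 40.1 in WT leaf, 46.3 to 76.3 in E82 leaf and at most 0.801 in grain. Within WT grain, replicate 1 stood apart in the 12 listed starch synthase, branching and debranching genes, with a summed TPM of 791 against 199.8 and 86.7 in replicates 2 and 3. Wheat homeologs are near-identical, so the split of reads between copies such as SUSase 7B and 7D is an estimate of the pseudoaligner and uncertain.

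SUSase 7B was a grain gene in both lines. Its TPM was 28.2, 22.2 and 32.1 in replicates 1 to 3 of WT grain, and 33.2, 29.4 and 26.6 in E82 grain. In WT leaf its TPM was 0.919, 4.80 and 4.77, on 110, 600 and 378 counts. In E82 leaf its TPM was 0.814, 1.05 and 0.808, on 163, 197 and 147 counts. Every grain library lay above every leaf library, while the lines overlapped in both tissues, in leaf through WT leaf replicate 1, which sat within the E82 range. By mean TPM the order was E82 grain (29.7 ± 3.32, SD, n = 3), WT grain (27.5 ± 4.97), WT leaf (3.5 ± 2.23) and E82 leaf (0.890 ± 0.136), and only the step from grain to leaf exceeded the spread.

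SUSase 7D was the more abundant of the listed SUSase genes in every library. Its TPM was 71.5, 78.9 and 79.0 in WT grain, and 80.8, 87.4 and 74.1 in E82 grain. In WT leaf its TPM was 47.5, 35.6 and 74.2, and replicate 3 thus reached the range of WT grain. In E82 leaf its TPM was 17.5, 23.4 and 23.3, below all 9 other libraries. By mean TPM the order was E82 grain (80.8 ± 6.63, SD, n = 3), WT grain (76.5 ± 4.27), WT leaf (52.4 ± 19.8) and E82 leaf (21.4 ± 3.37). Neighbours in this order overlapped except for the step from WT leaf to E82 leaf.

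SPS 4B ran the other way. Its TPM was 35.9, 26.7 and 24.9 in WT leaf, and 64.0, 59.7 and 71.0 in E82 leaf. In grain its TPM was 3.14, 5.40 and 6.17 in WT, and 4.74, 6.73 and 9.61 in E82. All leaf libraries lay above all grain libraries, and all E82 leaf libraries above all WT leaf libraries, whereas the lines overlapped in grain. By mean TPM the order was E82 leaf (64.9 ± 5.69, SD, n = 3), WT leaf (29.2 ± 5.91), E82 grain (7.03 ± 2.44) and WT grain (4.90 ± 1.57).

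**Figure D1:**
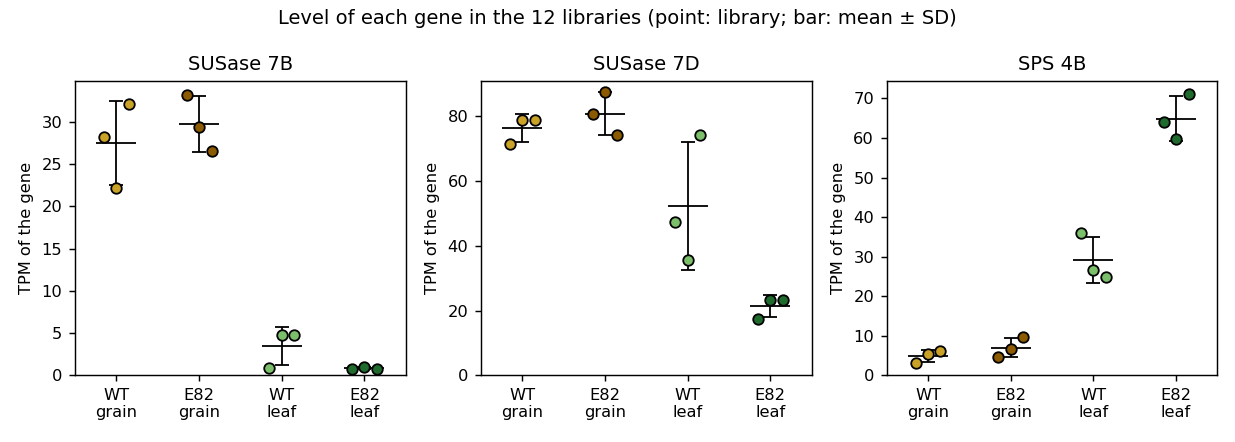
TPM of SUSase 7B, SUSase 7D and SPS 4B in each of the 12 libraries (points, replicates 1 to 3 from left to right), with the mean ± SD of each group. The SUSase genes are highest in grain (7B 22.2 to 33.2, 7D 71.5 to 87.4), SPS is highest in E82 leaf (59.7 to 71.0), and SUSase 7D in WT leaf spans 35.6 to 74.2.

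The balance of the listed SUSase and SPS transcripts differed between the tissues and, in leaf, between the lines. The summed TPM of the SUSase genes was 31.7, 18.7 and 18.0 times that of SPS in WT grain, and 24.0, 17.4 and 10.5 times in E82 grain. In WT leaf the ratio was 1.35, 1.51 and 3.18, so the listed SUSase genes together exceeded the listed SPS gene in every WT leaf library. In E82 leaf the ratio was 0.287, 0.410 and 0.340, so the listed SPS gene exceeded the listed SUSase genes together in all of them. The 2 leaf groups did not overlap, and neither did grain and leaf, while the grain groups did. These ratios are descriptions of TPM and were not tested. Other SUSase and SPS copies were not analysed, so the ratios hold for the listed genes only. The study lists these genes as changed between the lines in leaf and not in grain. The separation of the leaf groups and the overlap in grain are therefore no independent evidence. With CPM (counts scaled by library total only, not by length) in place of TPM, the mean ratio in WT leaf was 0.993 instead of 2.01, and that in E82 leaf was 0.169 instead of 0.346, because the SPS transcript is the longest of those measured. The side of 1 on which WT leaf fell therefore depended on the scale, and its separation from E82 leaf did not.

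The share of 7B in the summed TPM of the listed SUSase genes also depended on tissue. SUSase 7B gave 28.2%, 21.9% and 28.9% of the summed SUSase TPM in WT grain, and 29.1%, 25.2% and 26.4% in E82 grain. In leaf it gave 1.90%, 11.9% and 6.04% in WT, and 4.44%, 4.28% and 3.35% in E82. Of these listed genes, SUSase 7D thus dominated throughout, and 7B added a visible part in grain. The shares had no overlap between the tissues and overlap of the lines within each tissue.

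**Figure D2:**
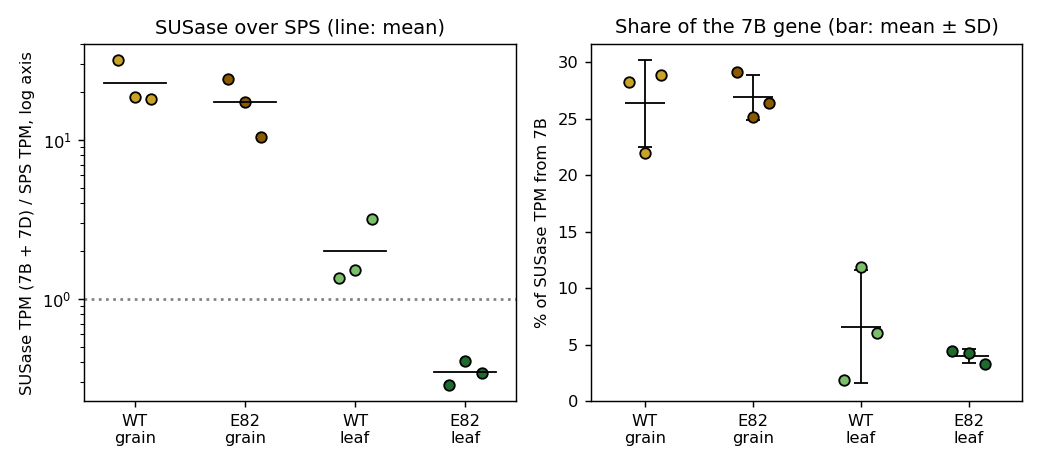
Left, summed SUSase TPM divided by SPS TPM in each library on a log axis, with the group mean as a line and a dotted line at equality; right, percent of the SUSase TPM that came from 7B, with mean ± SD. The ratio is 10.5 to 31.7 in grain, 1.35 to 3.18 in WT leaf, against 0.287 to 0.410 in E82 leaf, and the 7B share is 21.9% to 29.1% in grain and at most 11.9% in leaf.

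The annotation gives each SUSase gene 3 transcripts, here T1 to T3 after the last digit of their IDs, and grain and leaf used those of 7D in different proportions. The 7D gene was measured almost wholly through transcript T2 (1803 bases) and transcript T3 (2859 bases). Transcript T2 made 53.3%, 46.2% and 36.8% of the gene's TPM in WT grain, and 67.2%, 65.3% and 61.2% in E82 grain. The E82 grain libraries therefore lay above all WT grain libraries in the share of the shorter transcript, although the gene's total overlapped between the lines. In leaf the share of transcript T2 was 69.8% to 99.98% in WT and 81.3% to 92.3% in E82. The mean effective length of the gene, by which counts are divided to give TPM, was 2136 bases in WT grain, 1939 in E82 grain, 1768 in WT leaf and 1698 in E82 leaf.

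In SUSase 7B, transcript T3 (1820 bases) was listed at 0 in all 12 libraries. Transcript T1 (2645 bases) made 36.7%, 29.2% and 65.6% of the gene's TPM in WT grain, and 59.6%, 59.1% and 55.8% in E82 grain, so the lines overlapped. In E82 leaf transcript T2 (2948 bases) made 96.8% to 100% of the TPM. The WT leaf libraries disagreed, with transcript T1 at 0%, 60.9% and 100%. SPS 4B has 1 annotated transcript (3798 bases). All shares come from the pseudoaligner's division of reads among overlapping transcripts and were not tested.

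**Figure D3:**
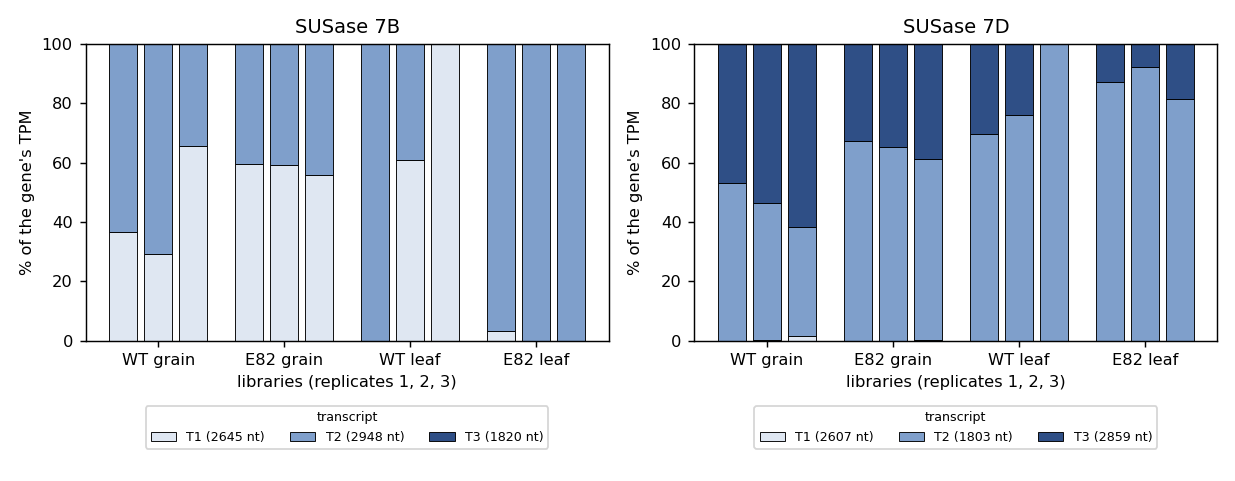
Percent of the gene's TPM assigned to each annotated transcript of SUSase 7B (left) and SUSase 7D (right), 1 bar per library, replicates 1 to 3 within each group. In SUSase 7D the 1803-base transcript T2 makes 36.8% to 53.3% in WT grain and 61.2% to 67.2% in E82 grain, and in SUSase 7B the WT leaf bars run from no transcript T1 to 100%.

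The first comparison asked whether the line changed these genes in the grain, where those promoters are active. None of the 3 genes was called, by edgeR's quasi-likelihood test or by any of the 10 alternatives, while 1.4% of 64706 genes were called in this comparison. The study lists these genes as changed in leaf and not in grain, so the absence of calls is no independent evidence. At an unadjusted p under 0.05 the quasi-likelihood test gave 0 of the 3 and DESeq2 gave 1, SUSase 7D (unadjusted p = 0.0372, adjusted p = 0.363). Such a p was reached by 10.2% of all genes in the quasi-likelihood test. The quasi-likelihood test of edgeR, with p-values adjusted after Benjamini-Hochberg, gave a log2FC of E82 over WT of -0.17 for SUSase 7B (SE 0.246, 95% interval -0.72 to 0.38, adjusted p = 0.935). For SUSase 7D the log2FC in edgeR's quasi-likelihood test was -0.30 (SE 0.195, interval -0.73 to 0.14, adjusted p = 0.683). For SPS 4B it was 0.34 (SE 0.286, interval -0.30 to 0.98, adjusted p = 0.812). The intervals leave room for a decrease of up to 1.66-fold in SUSase 7D and an increase of up to 1.97-fold in SPS 4B. The SUSase directions were not settled, since on log2(TPM + 1) the values were 0.12 for 7B and 0.08 for 7D, and without WT grain replicate 1 the log2FC of 7B was 0.02. Bulk tissue was sequenced, so fewer cells of a type and less RNA per cell cannot be told apart in any of these comparisons.

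The second comparison asked the same in the flag leaf, the source organ. None of the 3 genes was called at an adjusted p of 0.05 by edgeR's quasi-likelihood test, against 0.163% of 53874 genes called. An unadjusted p under 0.05 was reached by 2 of them (SPS 4B and SUSase 7D) and by 19.3% of all genes. In the study's list these 3 genes passed its threshold in this contrast and not in grain, so the values are no independent evidence of a direction. SPS 4B was 2.23-fold higher in E82 by mean TPM, with no overlap, and its log2FC in edgeR's quasi-likelihood test was 1.46 (SE 0.218, 95% interval 0.94 to 1.98, unadjusted p = 0.00032, adjusted p = 0.0739). SUSase 7D was 2.45-fold lower in E82 by mean TPM, again with no overlap, and its log2FC in edgeR's quasi-likelihood test was -1.0 (SE 0.244, interval -1.58 to -0.42, adjusted p = 0.0864). How many of all genes lacked overlap between the leaf groups was not counted. SUSase 7B had a mean TPM 3.93-fold lower in E82 with overlapping libraries, and a log2FC in edgeR's quasi-likelihood test of -1.55 (SE 0.766, interval -3.37 to 0.28, adjusted p = 0.352). The median log2FC of all genes tested here was 0.21, so the SPS value stood 1.26 above it and the SUSase 7D value 1.21 below it.

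The leaf calls turned on the test and on 1 library. DESeq2 called SPS (adjusted p = 1.64e-08) and SUSase 7D (adjusted p = 0.00349), and edgeR's exact test called both as well (adjusted p = 0.000199 and 0.0292). Of all 53874 genes tested, DESeq2 called 5702 and the exact test 6129. Over its 10 alternative settings the adjusted p of SPS ranged from 1.64e-08 to 0.181, with 5 past the threshold, and that of SUSase 7D from 0.00349 to 0.290, with 3 past it. Without WT leaf replicate 1, edgeR's quasi-likelihood test called SPS (log2FC 1.64, adjusted p = 0.0426) and SUSase 7B (log2FC -1.99, adjusted p = 0.0472), and called 8782 genes in place of 88. The directions of the 3 genes in leaf held in every alternative and with any 1 library left out. The leaf markers moved with SPS, with a log2FC of 0.96 and 1.25 for the GLK1 genes TraesCS7A02G339800 and TraesCS7D02G347500 (adjusted p = 0.192 and 0.0864 in edgeR's quasi-likelihood test) and summed TPM that did not overlap between the lines. The number of genes with a count also differed between the leaf groups. The paper reports a lower rate of aligned reads in every WT leaf library than in every E82 leaf library. The summed TPM of the grain markers, low in leaf, was lower in E82 leaf, with no overlap. The part of all these in the leaf differences was not tested.

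The next comparison set grain, the sink, against leaf, the source, within WT. SUSase 7B and 7D were called higher in grain, as were 21.3% of 64739 genes, and SPS 4B was called lower, as were 8.59%, for 29.9% called in all. SUSase 7B had a log2FC of 3.39 in edgeR's quasi-likelihood test (SE 0.651, 95% interval 1.81 to 4.97, adjusted p = 0.0159), and its mean TPM was 7.86-fold higher in grain. SPS 4B had a log2FC of -2.27 (SE 0.289, interval -2.97 to -1.57, adjusted p = 0.00451 in edgeR's quasi-likelihood test), and its mean TPM was 5.95-fold higher in leaf. The median log2FC of all genes tested was 0.73, which lies 2.67 below the SUSase 7B value and 3.0 above that of SPS.

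SUSase 7D was the least secure of these. Its log2FC was 1.21 (SE 0.268, 95% interval 0.56 to 1.86, adjusted p = 0.0231 in edgeR's quasi-likelihood test), only 0.48 above the median of all genes, and 57.5% of the genes tested had a lower log2FC. On log2(TPM + 1) the value fell to 0.60, with a limma adjusted p = 0.212, and the TPM of the groups overlapped. The effective length given above, by which counts and TPM differ, was longer in WT grain than in WT leaf, and its part in the lower value on TPM was not tested. The call was also lost without WT grain replicate 1, 2 or 3 (adjusted p = 0.0708, 0.0700 and 0.0594 in edgeR's quasi-likelihood test), and that of SUSase 7B without WT grain replicate 1 or 3 (0.0619 and 0.0577), whereas SPS stayed called without any 1 library. Over all genes, calls fell from 19363 to 5513, 5096 and 5760 without WT grain replicate 1, 2 and 3. The log2FC of SUSase 7D was 1.17, 1.27 and 1.26 in these fits. With the replicate number as a block, SUSase 7D was not called (log2FC 1.24, adjusted p = 0.0581), and the sources do not say whether grain and leaf libraries of the same number came from the same plant.

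The same comparison within E82 gave larger values for all 3 genes. Both SUSase genes were called higher in grain, as were 27.2% of 64737 genes, and SPS 4B lower, as were 23.2%, for 50.4% called in all. SUSase 7B had a log2FC of 4.56 (SE 0.201, 95% interval 4.10 to 5.03, adjusted p = 4.73e-06 in edgeR's quasi-likelihood test), and its mean TPM was 33.4-fold higher in grain. SUSase 7D had a log2FC of 1.71 (SE 0.177, interval 1.30 to 2.11, adjusted p = 0.000114 in edgeR's quasi-likelihood test), with a mean TPM 3.77-fold higher. SPS 4B had a log2FC of -3.60 (SE 0.305, interval -4.31 to -2.90, adjusted p = 4.00e-05 in edgeR's quasi-likelihood test), with a mean TPM 9.24-fold higher in leaf. The 3 calls held in all 10 alternatives and with any 1 library left out. This comparison shares no library with that in WT, but each shares its libraries with the comparisons of the lines.

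Whether the line acted differently in the 2 tissues was tested as an interaction over the 12 libraries. None of the 3 genes was called by edgeR's quasi-likelihood test or by its 8 alternatives, DESeq2 among them, against 2.93% of 70086 genes. An unadjusted p under 0.05 was reached by 2 (SUSase 7D and SPS 4B) and by 15% of all genes. The log2FC of the line in grain minus that in leaf was 1.38 for SUSase 7B (SE 0.642, 95% interval -0.03 to 2.79, adjusted p = 0.348 in edgeR's quasi-likelihood test). It was 0.70 for SUSase 7D (SE 0.307, interval 0.03 to 1.38, adjusted p = 0.303 in edgeR's quasi-likelihood test). It was -1.12 for SPS 4B (SE 0.407, interval -2.01 to -0.23, adjusted p = 0.204 in edgeR's quasi-likelihood test). The larger contrast of grain and leaf in E82 than in WT was therefore not past the threshold, except for SUSase 7B without WT leaf replicate 1 (log2FC 1.82, adjusted p = 0.00768). Because the study lists these genes as changed in leaf and not in grain, the interaction directions are no independent evidence.

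**Figure D4:**
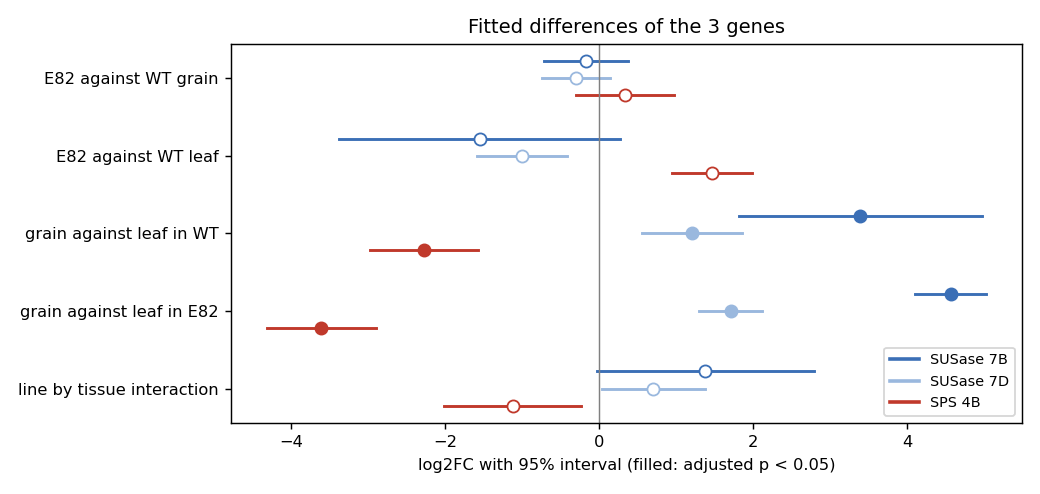
Log2FC of the 3 genes with its 95% interval in the 5 comparisons, from edgeR's quasi-likelihood test (filled points, adjusted p under 0.05; open points, not called). Called values are those between tissues (SUSase 7B 3.39 and 4.56, SUSase 7D 1.21 and 1.71, SPS 4B -2.27 and -3.60), and the line effects run from -1.55 to 1.46.

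Across the 12 libraries the 3 genes followed the tissue. For this description CPM was scaled by edgeR's TMM normalization factors as well as by library total. On log2(CPM + 1), Pearson's r was 0.921 between the SUSase genes, -0.965 between SPS and SUSase 7B and -0.964 between SPS and SUSase 7D. The libraries fall into a grain and a leaf cluster, so these values describe the tissue contrast and depth differs between the groups too. Among 20363 genes with a mean of at least 10 CPM, 2542 had an r of at least 0.9 with SUSase 7B, 878 with SUSase 7D and 3219 with SPS 4B. The 5 most alike reached r = 0.991 to 0.996 for SUSase 7B, led by TraesCS4A02G486100, 0.978 to 0.984 for SUSase 7D, led by TraesCS3D02G464600, and 0.988 to 0.993 for SPS 4B, led by TraesCS1A02G084300. Of the listed sugar genes, TaSWEET15a-7D, a sucrose exporter, ranked 41 in likeness to SUSase 7B (r = 0.978), and TaSWEET15b-7A ranked 27 for SUSase 7D (r = 0.969).

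The other genes of the route were taken from the study's lists, which were drawn from these libraries and are no independent evidence of direction. SUT1 loads and retrieves sucrose across membranes, SWEET proteins export sugars, and cell wall invertase (TaCWIN) splits sucrose outside the cell. The 3 SUT1 genes summed to 1405, 1166 and 1398 TPM in WT leaf, against 261, 527 and 275 in E82 leaf, with no overlap. The 7 TaSWEET13 genes summed to 14041, 14034 and 22488 TPM in WT leaf, against 1175, 3089 and 2065 in E82 leaf. Each E82 leaf library thus lay below all WT leaf libraries in both sums. By test, 0 of the 17 tested genes of sucrose transport, export and invertase were called in leaf by edgeR's quasi-likelihood test. Of the 17, 15 lay below 0 (median log2FC -2.35, against 0.21 for all genes). An unadjusted p under 0.05 was reached by 13 of these 15, and by 19.3% of all genes in either direction. DESeq2 called 14 of the 17, the exact test 12, and the quasi-likelihood test 10 without WT leaf replicate 1. Over all genes these called 5702, 6129 and 8782. Their log2FC ran from -10.77 for TaSWEET15a-7D, listed at 0 in E82 leaf and so no bound, to 4.82 for TaSWEET1a1-3B, near 0 in WT leaf.

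In grain, 0 of 15 tested transport and invertase genes were called between the lines by edgeR's quasi-likelihood test. An unadjusted p under 0.05 was reached by 5 of them and by 10.2% of all genes. The median log2FC of the 15 was -0.23. The highest value was 0.80, for the TaCWIN gene TraesCS2B02G311900. The lowest was that of TaSWEET13h-6B, at no more than 44 counts in any grain library. DESeq2 called 1 of these genes and the exact test 0, against 2604 and 2119 of all genes.

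Of the listed genes for the steps that follow SUSase in the grain, 5 of 5 for ADP-glucose and 11 of 12 for starch had a log2FC below 0 between the lines. The listed grain markers moved with them: all 5 outside the starch list were below 0, and the transcription factor TaPBF-A was called (log2FC -6.14, adjusted p = 0.0259 in edgeR's quasi-likelihood test). TaPBF-B and TaPBF-D had log2FC of -5.09 and -5.37 and the Glo3 genes of -0.77 and -0.50, none of them called, and the part of these markers in the starch values was not tested. ADP-glucose pyrophosphorylase makes the glucosyl donor of starch, and OsBT1-1, in rice, carries it into the amyloplast. In grain, 2 of 5 genes of ADP-glucose synthesis and transport were called lower by edgeR's quasi-likelihood test, both OsBT1-1 (TraesCS6B02G210000 and TraesCS6D02G168200), beside 1.4% of all genes called in either direction. They held 60 to 1410 counts in WT grain and were at 0 in all E82 grain libraries. The other 3 had log2FC down to -2.49 (APL3/AGPL1, TraesCS1D02G427400) and were not called. The exact test called all 5, among 2119 of all genes, and leaving out any 1 E82 grain library left 0 called. Over all genes, 319, 298 and 338 were called without E82 grain replicate 1, 2 and 3, in place of 905. Without WT grain replicate 1 the median of the 5 was -1.15 in place of -2.49, with 1 called, and without WT grain replicate 3 all 5 were called. Over all genes these fits called 677 and 1669.

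Of the 12 starch synthase, branching and debranching genes, 2 were called lower in E82 grain by edgeR's quasi-likelihood test, again beside 1.4% of all genes. SSIIIa, a synthase of amylopectin chains, had a log2FC of -6.82 (adjusted p = 0.00861), and the branching enzyme GBE1/BEIIb (TraesCS2A02G310300) one of -5.59 (adjusted p = 0.0296). The median of the 12 was -3.41, and the highest value was 0.26, for the debranching enzyme ISA3. Their summed TPM was 791, 199.8 and 86.7 in WT grain and 48.7, 48.1 and 52.9 in E82 grain, so the groups did not overlap but WT grain spread widely. DESeq2 called 8 and the exact test 10 of the 12, and the quasi-likelihood test called 4, with a median of -1.64, without WT grain replicate 1. Their calls over all genes were 2604, 2119 and 677. Leaving out E82 grain replicate 3 left 0 called, and leaving out WT grain replicate 3 gave 9. Over all genes these fits called 338 and 1669, in place of 905. Across the same WT grain libraries the TPM of SUSase 7D ran from 71.5 to 79.0.

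In leaf, 0 of 3 tested ADP-glucose genes and 0 of 8 tested starch genes were called by edgeR's quasi-likelihood test. An unadjusted p under 0.05 was reached by 2 and 6 of them, and by 19.3% of all genes. DESeq2 and the exact test each called 2 ADP-glucose and 5 starch genes, and the quasi-likelihood test 0 and 4 without WT leaf replicate 1. Over all genes these called 5702, 6129 and 8782. Among the ADP-glucose genes the log2FC ran from -2.25 to 0.04, with a median of -1.53. Among the starch genes it ran from -6.53 (GBSSI/waxy TraesCS7A02G070100) to 9.93 (GBE1 TraesCS7B02G472500, at 0 in WT leaf and so no bound), with a median of 1.69.

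**Figure D5:**
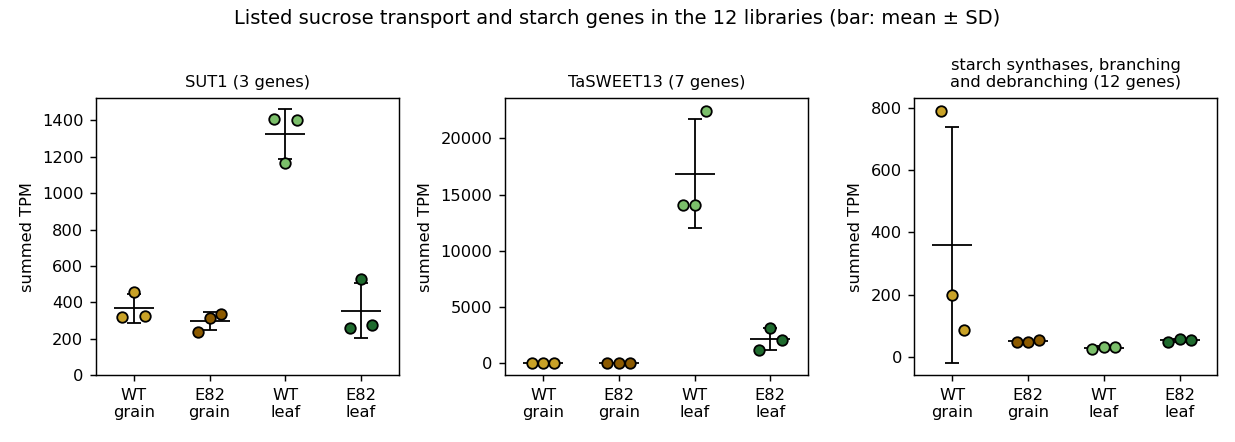
Summed TPM of the listed SUT1 genes, TaSWEET13 genes and starch synthase, branching and debranching genes in each of the 12 libraries (points), with mean ± SD. SUT1 is 1166 to 1405 in WT leaf, against 261 to 527 in E82 leaf, TaSWEET13 is 14034 to 22488 and 1175 to 3089, and the starch genes are 86.7 to 791 in WT grain and 48.1 to 52.9 in E82 grain.

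Between the tissues of WT, grain was called higher for 4 of 5 ADP-glucose genes (both APL3/AGPL1 and both OsBT1-1) and 8 of 12 starch genes (the 3 GBE1 genes, both SSIIa, GBSSI and both GBSSI/waxy). Of all genes, 21.3% were called higher in grain and 8.59% lower. The median log2FC was 3.41 and 9.98 for these lists, and 0.73 for all genes. Without WT grain replicate 1, 1 ADP-glucose gene and 5 starch genes were called. Leaving out WT grain replicate 2 left 0 called in both lists. Over all genes, 5513 were called without replicate 1 and 5096 without replicate 2, in place of 19363. Of 19 transport and invertase genes, 5 were called higher (both TaCWIN, TaSWEET15b-7A, TaSWEET1a1-3B and TaSWEET4a-6A) and 10 lower (the 3 SUT1 and the 7 TaSWEET13 genes), with a median of -1.17. The TaCWIN genes, on the same sink side as SUSase, summed to 56.8 to 68.4 TPM in WT grain and were at 0 in WT leaf.

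Between the tissues of E82, 2 of the 3 tested ADP-glucose genes (both APL3/AGPL1) and 7 of 12 starch genes (ISA3, GBE1 TraesCS7A02G549100, both SSIIa, GBSSI and both GBSSI/waxy) were called higher in grain. Called lower in grain were APS1/AGPS1/Bt2, SSI and GBSSII. Of all genes, 27.2% were called higher in grain and 23.2% lower. Of the 19 transport and invertase genes, 8 were higher (both TaCWIN, the 3 TaSWEET15, TaSWEET1a1-3B, TaSWEET4a-6A and TaSWEET4b-6B) and 9 lower (SUT1D, the 7 TaSWEET13 genes and TaSWEET6b17-7D). The medians were 2.26, 1.33 and -0.53 for the lists in that order, and 0.24 for all genes.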

How the data were processed

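RNA-seq reads of 12 libraries (WT and E82, grain and flag leaf, 3 plants each) were trimmed by the authors with Trimmomatic 0.36 and pseudoaligned with kallisto 0.44.0 to the IWGSC RefSeq annotation. Estimated counts per gene were deposited by the authors as sums over transcripts, not normalized. They also deposited TPM per transcript, in which kallisto divides by effective length and scales over its whole index; TPM was summed here per gene. Groups came from the sample labels. All count columns were used.

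Estimated counts were rounded and tested with edgeR 4.0.16 in R 4.3.3 (TMM, glmQLFit, glmQLFTest, CPM sum above 1 over the libraries fitted, Benjamini-Hochberg adjustment over all genes tested, threshold 0.05). Pair-wise comparisons used 6 libraries and the interaction 12. The SE was worked back from the log2FC and the F statistic, and the 95% interval uses the test's degrees of freedom. Counts below 3 are to be read as a floor that covers counting error only, and this floor entered no fit. The alternatives comprised the exact test of edgeR, DESeq2 1.42.0, other normalizations and filters, 12 libraries sharing one spread, limma 3.58.1 on log2 TPM with a pseudocount of 1 or 0.1 (mean TPM above 0.1), the replicate number as a block, and each library left out. Counts of listed genes under these settings were added after seeing the data. The log2(TPM + pseudocount) scale understates changes of low genes. The fit was tested on simulated data.

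The genes and lists were chosen with earlier results of these data known. Named were the 3 genes, the extremes and called genes of each list, and the genes most alike over libraries (the leading 1 of 5 by ID, since no names are paired with IDs). A fitted log2FC against a group at 0 is no bound.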

Additional observations from a re-analysis of the deposited data

Results flagged for a closer look

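Of the 5 ADP-glucose, 12 starch and 19 transport and invertase genes tested, 4 were called for a line effect that differed between the tissues. The test was the interaction of line and tissue in edgeR's quasi-likelihood test, which called 2.93% of 70086 genes. It could not decide on listed genes at 0 in both lines of a tissue, whose SE was 2285 to 30402. In leaf these were both OsBT1-1, SSIIa TraesCS7D02G190100, GBSSI and GBSSI/waxy TraesCS7D02G064300. In grain they were TaSWEET13b-6D, TaSWEET13d-6B, TaSWEET13f-6D and TaSWEET13i-6B. The study drew these lists from the same libraries, so the share of listed genes called is no independent evidence of such an effect. The branching enzyme gene GBE1/BEIIb (TraesCS2A02G310300) had an adjusted p of 0.0139, with 407 to 5386 counts in WT grain, 15 to 106 in E82 grain, none in WT leaf, with 12 to 51 in E82 leaf. The branching enzyme gene GBE1 (TraesCS7B02G472500) had an adjusted p of 0.0103, with 399 to 3731 counts in WT grain, 192 to 281 in E82 grain, none in WT leaf, with 123 to 166 in E82 leaf. Both branching enzyme calls thus involve no counts in WT leaf, the group with the fewest genes with a count. The part of that in the calls was not tested. The starch synthase SSI (TraesCS7B02G018600) had an adjusted p of 0.0395, with a TPM of 13.5 to 42.2 in WT grain, 7.18 to 10.5 in E82 grain, 19.2 to 27.0 in WT leaf, against 34.1 to 36.1 in E82 leaf. The sugar transporter TaSWEET1a1-3B (TraesCS3B02G441800) had an adjusted p of 0.0420, with a TPM of 11.2 to 19.7 in WT grain, 7.13 to 11.3 in E82 grain, at most 0.0752 in WT leaf, against 0.287 to 1.15 in E82 leaf.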

How the results depend on the processing

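Of 144 values of the 3 genes under another setting, 128 kept direction and call, as did 99 of 108 with 1 library left out. In grain between the lines, SUSase 7B turned to 0.0419 with library totals alone and to 0.120 on log2(TPM + 1) and 0.124 on log2(TPM + 0.1), and ranged from -0.376 to 0.0227 with 1 library left out. SUSase 7D turned to 0.0764 and 0.0773 on these TPM scales. In leaf, SUSase 7D was called by DESeq2 (-1.09), the exact test (-1.0) and 12 libraries sharing one spread (-0.99). SPS 4B was called by DESeq2 (1.38), the exact test (1.46), 12 libraries (1.47), filterByExpr (1.45) and limma on log2(TPM + 0.1) (1.17), and ranged from 1.34 to 1.64 with 1 library left out. SUSase 7B in leaf ranged from -1.99 to -1.19. In WT between tissues, SUSase 7B ranged from 3.0 to 3.75 and SUSase 7D from 1.03 to 1.40 with 1 library left out, and SUSase 7D lost its call at 0.60 on log2(TPM + 1) and 0.61 on log2(TPM + 0.1). The interaction of SUSase 7B ranged from 1.02 to 1.82. The cause was not tested.

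The number of genes called between the lines in grain (905) was 2604 by DESeq2, 2119 by the exact test, 165 with 12 libraries, 1600 without a filter, 536 by limma on log2(TPM + 1), and 298 to 1669 with 1 library left out. In leaf (88) it was 5702 by DESeq2, 6129 by the exact test, 4367 with 12 libraries, 148 with library totals, 4005 with filterByExpr, 709 and 3278 by limma with pseudocounts of 1 and 0.1, and 7 to 8782 with 1 library left out. Between tissues it was 5096 to 21657 in WT with 1 library left out, and 19373 in E82 with 12 libraries. For the interaction it was 6055 by DESeq2 and 549 to 6547 with 1 library left out.

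The replicate numbers were not taken to pair the libraries, since no correlation of deviations between libraries of the same number was over 0.1. With the replicate number as a block, the genes called were 46 in leaf, 5718 between tissues in WT and 211 for the interaction, and SUSase 7D in WT had a log2FC of 1.24 with an adjusted p of 0.0581 in edgeR's quasi-likelihood test; no other call of the 3 genes changed.

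With CPM in place of TPM, 6 of 8 group means of the 7B share and the SUSase to SPS ratio moved by more than 1 SD. With 3 libraries per group, the interval of SUSase 7B in leaf between the lines ran from -3.37 to 0.28 on the log2 scale, on counts as low as 110.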
